A study of Mus musculus with 16 samples.

Results

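Fatty acid oxidation (FAO) genes were examined in adipose tissue macrophages (ATMs), the F4/80+ cells of epididymal fat. They were 9 of the 37310 genes in the count table, chosen by name for their place in mitochondrial FAO: the carnitine palmitoyltransferases Cpt1a and Cpt2, the acyl-CoA dehydrogenases Acadvl, Acadl and Acadm, the 2 subunits of the trifunctional protein, Hadha and Hadhb, and 2 regulators, Ppargc1b and Pparg. All 9 passed the filter on low counts in every comparison. The 16 libraries came from male mice on a C57BL/6 background that started a high-fat diet (HFD) as young adults. There were 4 libraries each of WT and IRF5-KO ATMs after 4 weeks of HFD (ST-HFD), and 4 each after 12 weeks (LT-HFD). IRF5-KO mice carried loxP sites in both Irf5 alleles and Cre in the Lyz2 locus (LysM-Cre), which is active in macrophages but also in monocytes and neutrophils. The sources used here do not say whether WT mice carried the loxP sites or the Cre alone. All groups ate HFD, so there is no lean control among these libraries.

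Mitochondrial FAO starts when a fatty acid, activated to its acyl-CoA, is passed to carnitine at the outer membrane. Carnitine palmitoyltransferase 1 makes this step and is the rate-limiting, malonyl-CoA-sensitive gate, and carnitine palmitoyltransferase 2 reverses it inside. Each turn of the spiral then removes an acetyl-CoA through a dehydrogenase, a hydratase, a second dehydrogenase and a thiolase. In macrophages FAO has been tied to alternative activation and to the handling of lipid taken up in obese fat.

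Total counts per library ran from 3860469 to 4958131 at 4 weeks and from 3279332 to 3792898 at 12 weeks, without overlap between durations. The 3 features with the most counts took 18.6% to 24.1% of counts at 4 weeks and 26.1% to 34.6% at 12 weeks. Macrophage markers were abundant, with Adgre1, which encodes F4/80, between 507 and 995 CPM (counts scaled to library size, with TMM factors) and all 8 macrophage markers counted. Adipocyte markers were low, 6.51 to 39.3 CPM for the sum of 8 genes over all libraries, and T and NK cell markers summed to at most 7.20 CPM. The sum of 6 fibroblast and preadipocyte markers was 653 to 1593 CPM at 4 weeks and 3001 to 8690 CPM at 12 weeks, and each of the 6 genes rose in both genotypes. In WT LT-HFD replicate 4 and IRF5-KO LT-HFD replicate 1 this sum, 8690 and 7183 CPM, was above that of the 8 macrophage markers, 6994 and 5671 CPM. In IRF5-KO LT-HFD replicate 4 it was 5542 against 5843 CPM. These sums are not shares of cells. Irf5 averaged 238 ± 23.2 CPM in WT and 262 ± 11.5 in IRF5-KO on ST-HFD, and 193 ± 20.1 and 229 ± 26.5 on LT-HFD (SD, n = 4), so libraries labelled IRF5-KO did not have less of it. A count per gene does not separate the deleted exons from the others. Lyz2, the locus of the Cre, averaged 3429 ± 288 and 1757 ± 251 CPM on ST-HFD and 3673 ± 483 and 1789 ± 182 CPM on LT-HFD in WT and IRF5-KO (SD, n = 4). Durations are those of the labels. A scatter plot of Irf5 over ATMs in the study draws it higher on LT-HFD, while the labels of these ATM libraries put it lower at 12 weeks, so the sign of each duration difference rests on the labels.

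The members spanned a wide range of transcript levels. Per kilobase of exon, Acadl, the long-chain acyl-CoA dehydrogenase, was highest at 53.0 ± 7.50 CPM per kilobase (SD, n = 16). Cpt1a followed at 27.2 ± 4.30, Hadha at 22.3 ± 5.70, Acadvl at 16.3 ± 2.24, Acadm at 12.8 ± 1.84, Pparg at 9.30 ± 2.52, Cpt2 at 6.06 ± 0.995, Hadhb at 5.18 ± 1.46 and Ppargc1b at 3.72 ± 2.41 CPM per kilobase. Acadl was above Cpt1a by more than the sum of their SDs, and every later neighbour in this order lay within the sum of the 2 SDs. With the longest transcript as the length, Acadl was at 55.5 ± 7.85, Hadha at 48.5 ± 12.4 and Cpt1a at 48.2 ± 7.61 CPM per kilobase (SD, n = 16), so the lead of Acadl lay within the SDs. Acadm then stood above Acadvl and Hadhb above Cpt2.

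**Figure D1:**
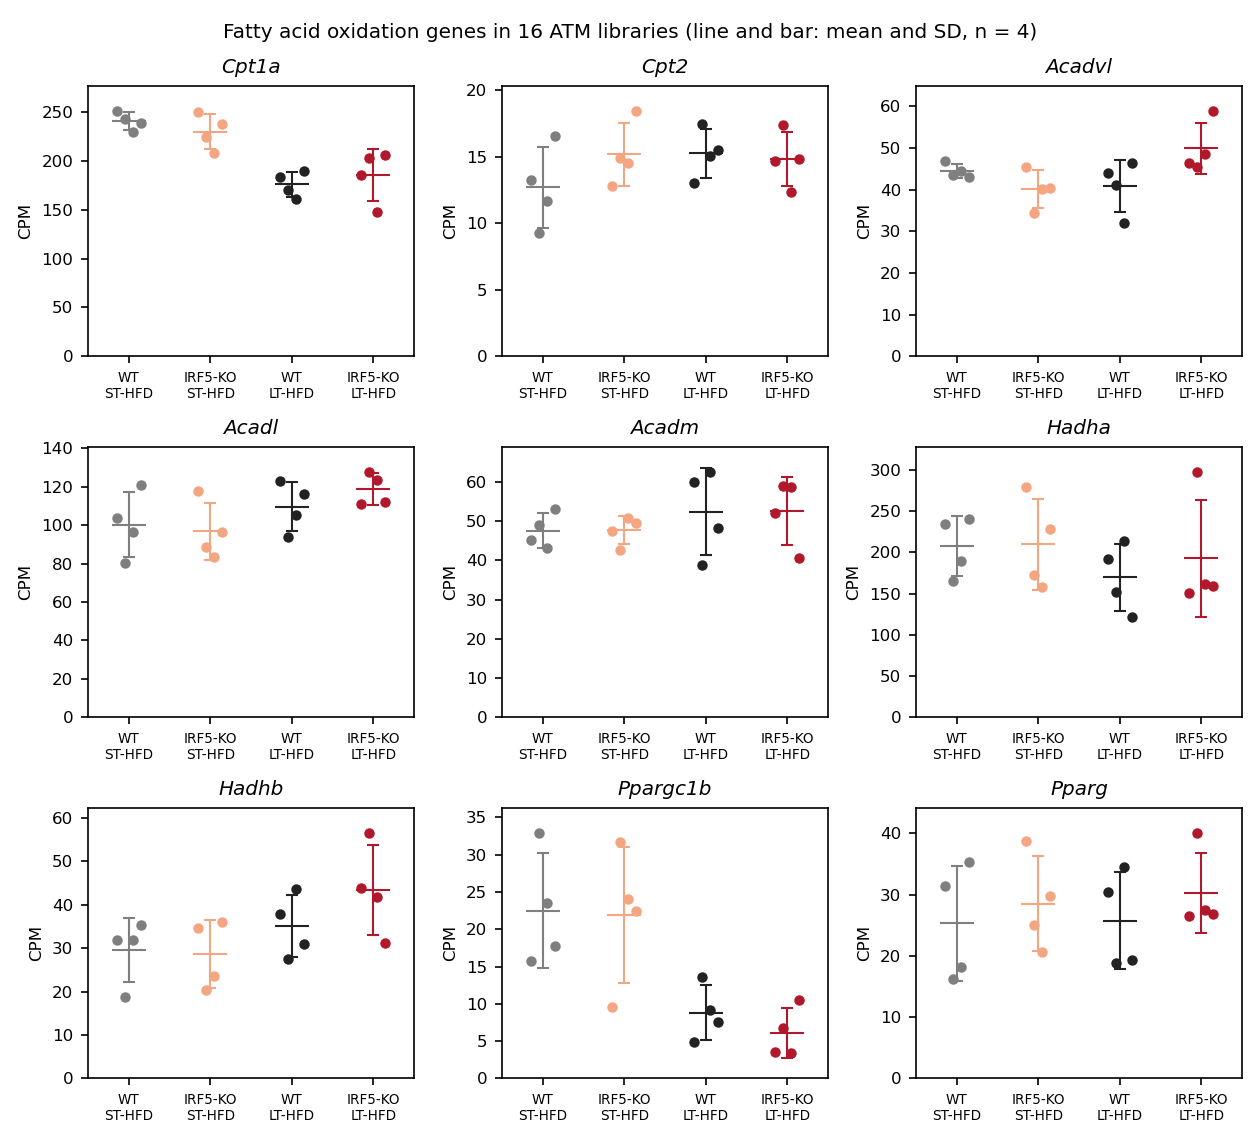
Level of each of the 9 genes in CPM (y axis, from 0) in the 16 ATM libraries by genotype and duration (x axis), with 1 point per library and the mean and SD of 4. Cpt1a and Ppargc1b sit lower on LT-HFD than on ST-HFD, and no gene separates WT from IRF5-KO.

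The first question was whether ATM libraries labelled IRF5-KO differed from those labelled WT in FAO transcripts, at either duration. On ST-HFD, none of the 9 members passed an adjusted p of 0.05 (edgeR quasi-likelihood), and 0 of 9 passed 0.05 unadjusted. Over all 10958 genes tested, 0.00913% passed the adjusted and 1.84% the unadjusted threshold. On LT-HFD, the members again gave 0 of 9 at both thresholds, against 0.0182% and 5.72% of 10987 genes. With the replicate number as a block, 2 genes on ST-HFD passed the adjusted threshold in place of 1 and 451 the unadjusted in place of 202, with 0 of 9 members still. DESeq2's Wald test also called 0 of 9 at either duration. The 4 WT and 4 IRF5-KO values of every member overlapped, while no overlap was found for 1.47% of all genes at 4 weeks and 3.01% at 12 weeks.

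Cpt1a, on chromosome 19 from 3322334 to 3385733 (GRCm38, plus strand), had the narrowest interval on ST-HFD. On ST-HFD it was at 252, 243, 229 and 238 CPM in WT and at 250.03, 224, 208 and 238 CPM in IRF5-KO. The difference, IRF5-KO minus WT, was -0.07 on the log2 scale with a 95% interval of -0.27 to 0.14 (adjusted p = 1.0, edgeR). On LT-HFD, Cpt1a was at 184, 170, 161 and 189 CPM in WT and at 185, 203, 147 and 206 CPM in IRF5-KO, with an interval of -0.21 to 0.35. At neither duration did the genotypes stand apart in these unpaired comparisons. On ST-HFD each IRF5-KO value was below the WT value of the same replicate number, though replicate 4 had 238.4 CPM in WT and 237.8 CPM in IRF5-KO.

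Acadvl, the very-long-chain acyl-CoA dehydrogenase, had the smallest p of the members between genotypes. On LT-HFD it was at 44.0, 41.2, 32.0 and 46.5 CPM in WT and at 46.4, 45.5, 48.6 and 59.0 CPM in IRF5-KO. The log2 difference was 0.28 (95% interval -0.04 to 0.60, unadjusted p = 0.0826, adjusted p = 0.853, edgeR). Acadvl overlaps Dvl2 on the opposite strand, the library kit keeps strand but the strand setting of the counting is not given in the sources used here, and the table gave Dvl2 2214 counts against 2796 for Acadvl. Reads of the shared stretch could therefore belong to either gene.

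The intervals of the other members were wider on ST-HFD, while on LT-HFD that of Acadl, -0.15 to 0.37, was narrower than that of Cpt1a. On ST-HFD they reached from -0.24 to 0.23 for Acadm, from -0.39 to 0.27 for Acadl, from -0.22 to 0.69 for Cpt2 and from -0.42 to 0.44 for Hadha. Ppargc1b had the widest, -0.75 to 0.66 at 4 weeks and -1.44 to 0.37 at 12 weeks. Ppargc1b had 12 to 142 counts per library. With the replicate block on ST-HFD, the SE of Hadha was 0.094 in place of 0.19.

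**Figure D2:**
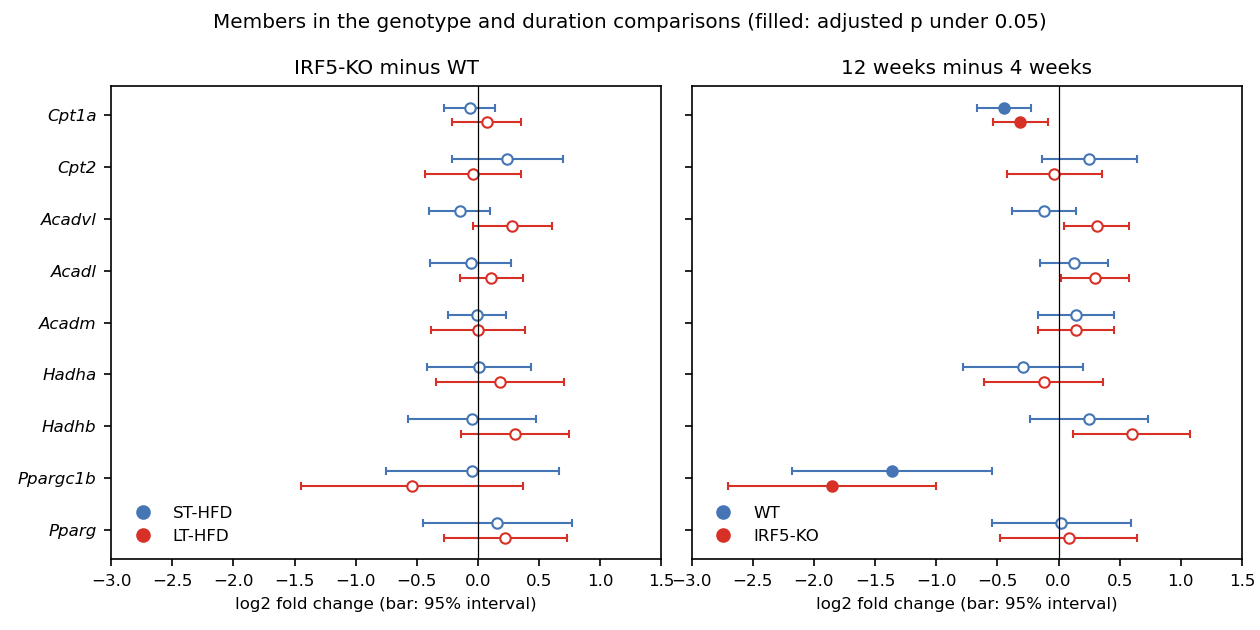
Log2 fold change (x axis) with its 95% interval from edgeR for each of the 9 genes, IRF5-KO minus WT on the left and 12 weeks minus 4 weeks on the right, where filled points mark an adjusted p under 0.05. All genotype intervals span 0, and on the right Cpt1a and Ppargc1b are filled in both WT and IRF5-KO.

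The second question was how FAO genes differed between 4 and 12 weeks of HFD. In WT, 2 of 9 members were lower at 12 weeks, Cpt1a and Ppargc1b, and none was higher, against 13.2% of 11560 genes lower and 12.1% higher. In IRF5-KO the same 2 of 9 were lower and none higher, against 17.2% lower and 15.6% higher of all genes. With upper-quartile scaling the split of all called genes moved from 1401 higher and 1527 lower to 1786 and 1215 in WT, and from 1801 and 1986 to 2462 and 1554 in IRF5-KO, and the median of all genes from 0.02 to 0.10 and from 0.04 to 0.15. In IRF5-KO it left 4 members called, Ppargc1b lower and Acadl, Acadvl and Hadhb higher (0.40, 0.42 and 0.71), and 4 were also called without IRF5-KO ST-HFD replicate 1, against 1 without LT-HFD replicate 1 or 3. The median log2 fold change of the 9 members was 0.02 in WT and 0.08 in IRF5-KO, beside 0.02 and 0.04 for all genes tested. Averaged over genotypes, Hadhb was also called, higher at 12 weeks, giving 1 higher and 2 lower of 9 where 22% of all genes were higher and 21.6% lower. The IRF5-KO and WT duration differences come from separate libraries, but the fits share their estimate of the spread.

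Cpt1a was lower at 12 weeks in both genotypes. Its mean fell from 241 ± 9.27 to 176 ± 12.9 CPM in WT and was 230.1 ± 18.0 and 185 ± 26.9 CPM in IRF5-KO (SD, n = 4). All 8 LT-HFD libraries, at 147 to 206 CPM, were below all 8 ST-HFD libraries, at 208 to 252 CPM. No overlap between the groups of 4 was found for 26.1% of all genes in WT and 29.4% in IRF5-KO, and, among members, for Cpt1a and Ppargc1b in WT and for Cpt1a and Acadvl in IRF5-KO. The log2 fold change was -0.45 (SE 0.11, adjusted p = 0.00428, edgeR) in WT and -0.31 (SE 0.11, adjusted p = 0.0309) in IRF5-KO. The call in IRF5-KO was lost with upper-quartile scaling (adjusted p = 0.147), with no filter on low counts (0.0712), with the 8 IRF5-KO libraries fitted alone (0.0815), and without IRF5-KO ST-HFD replicate 1 or 4 or LT-HFD replicate 1 or 3 (0.0661 to 0.108). In contrast, the average of both genotypes, -0.38 (adjusted p = 4.78e-04, edgeR), was called under all of the alternatives tried and with any library left out.

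The 300 bases at the Cpt1a start are shown because Cpt1a is the enzyme gene called in both genotypes. They are from RefSeq (GRCm38.p6), chr19:3323051-3323350, plus strand, 250 bases before to 50 after the start, with matches to a GC box in capitals.
Cpt1a: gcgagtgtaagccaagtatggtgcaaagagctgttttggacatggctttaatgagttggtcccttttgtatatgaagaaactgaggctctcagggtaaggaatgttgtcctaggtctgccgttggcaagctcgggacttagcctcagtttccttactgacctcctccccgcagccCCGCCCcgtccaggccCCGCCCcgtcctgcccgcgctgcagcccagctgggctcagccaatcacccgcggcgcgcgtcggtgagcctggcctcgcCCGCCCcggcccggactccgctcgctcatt
Its 3 matches to GGGCGG, read on either strand, were the only ones found among the 6 motifs searched, and 35.7% of all 32851 promoter windows hold this motif.

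Ppargc1b encodes PGC-1beta, a coactivator of nuclear receptors that drives mitochondrial and FAO genes, and lies on chromosome 18 from 61298136 to 61400431 (minus strand). It changed most among the members. On ST-HFD it was at 15.8, 33.0, 23.5 and 17.7 CPM in WT and at 9.62, 31.6, 24.0 and 22.4 CPM in IRF5-KO. On LT-HFD it was at 4.89, 13.6, 9.18 and 7.61 CPM in WT and at 3.59, 6.78, 3.37 and 10.5 CPM in IRF5-KO. The groups did not overlap in WT, while in IRF5-KO 1 ST-HFD library (9.62 CPM) was below 1 LT-HFD library (10.5 CPM). The log2 fold change was -1.36 (SE 0.39, adjusted p = 0.0151, edgeR) in WT and -1.85 (SE 0.40, adjusted p = 0.00201) in IRF5-KO. Without WT ST-HFD replicate 2, the library with the most Ppargc1b, the WT value was -1.12 (adjusted p = 0.0556). The average over genotypes, -1.61 (adjusted p = 1.61e-04, edgeR), was called under all of the alternatives tried and with any library left out.

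The dehydrogenases that open the spiral showed no called change with duration in the fit of all 16 libraries under TMM scaling. Acadl averaged 100.4 ± 16.8 and 109.6 ± 12.7 CPM at 4 and 12 weeks in WT, and 96.8 ± 15.1 and 119 ± 8.37 CPM in IRF5-KO (SD, n = 4), with an average log2 fold change of 0.21 (adjusted p = 0.0770, edgeR). This average was called with upper-quartile scaling (0.30, adjusted p = 0.0149) and without WT ST-HFD replicate 4, IRF5-KO ST-HFD replicate 1 or WT LT-HFD replicate 2 (adjusted p = 0.0245 to 0.0494). Acadm, the medium-chain enzyme, had 0.14 (adjusted p = 0.289). Acadvl was 0.31 in IRF5-KO (adjusted p = 0.0671), with 34.5 to 45.52 CPM on ST-HFD just below 45.54 to 59.0 CPM on LT-HFD, and -0.12 in WT (adjusted p = 0.539). Its IRF5-KO value was called without IRF5-KO ST-HFD replicate 1 or WT LT-HFD replicate 3 (adjusted p = 0.0411 and 0.0430, edgeR), and so was that of Acadl without IRF5-KO ST-HFD replicate 1 (0.0301). Cpt2, the inner carnitine palmitoyltransferase, had an average of 0.11 (adjusted p = 0.526).

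Hadha and Hadhb encode the alpha and beta subunits of the trifunctional protein, which carries out the last 3 steps on long chains. They lie head to head on chromosome 5, Hadha from 30118304 to 30155162 on the minus strand and Hadhb from 30155248 to 30184593 on the plus strand, with 86 bases between them (GENCODE M21). The RefSeq starts are 273 bases apart, and their promoter windows share 228 of 300 bases. The whole Hadhb window, chr5:30155003-30155302 (GRCm38.p6, plus strand), is shown with motif matches in capitals, because its first 228 bases, up to 30155230, also belong to the Hadha window.
Hadhb: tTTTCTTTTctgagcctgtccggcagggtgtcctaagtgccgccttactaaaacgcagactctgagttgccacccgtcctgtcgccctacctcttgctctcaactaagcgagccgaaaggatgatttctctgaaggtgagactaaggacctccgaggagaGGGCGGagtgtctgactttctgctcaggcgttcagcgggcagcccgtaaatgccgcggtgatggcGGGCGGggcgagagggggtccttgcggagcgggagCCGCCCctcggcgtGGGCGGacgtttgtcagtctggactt
The Hadhb window holds 4 matches to the GC box GGGCGG and, near its 5′ end, 1 match to AANNGAAA, the core bound by interferon regulatory factors, which 23.9% of all windows hold. The Hadha window holds 1 GC box and the same interferon regulatory factor core. Of the 8 members with a window on other chromosomes than 18, 6 hold the GC box, 4 the interferon regulatory factor core (Cpt2, Hadha, Hadhb and Pparg, with Hadha and Hadhb sharing 1 site) and 1, Acadm, the NRF1 core GCGCATGC, held by 2.71% of all windows. Pparg has more than 1 window and holds the interferon regulatory factor core in 1 of them. Counted over the 10 windows of these members, 7 hold the GC box (35.7% of all windows) and 4 the interferon regulatory factor core. None holds the PPAR-RXR core GGTCANAGG (1.72% of windows), the estrogen-related receptor element TCAAGGTCA (0.423%) or the cyclic AMP response element TGACGTCA (1.79%). All motifs were searched on both strands, and a match is a description of letters, not of binding.

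Hadha was at 235, 166, 189.5 and 241 CPM in WT and at 279, 173, 158 and 229 CPM in IRF5-KO on ST-HFD. On LT-HFD it was at 192, 152, 214 and 122 CPM in WT and at 151, 298, 162 and 159 CPM in IRF5-KO. All groups overlapped, and the average log2 fold change was -0.21 (adjusted p = 0.328, edgeR).

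Hadhb was at 32.0, 18.8, 31.9 and 35.4 CPM in WT and at 34.7, 20.3, 23.6 and 35.9 CPM in IRF5-KO on ST-HFD. On LT-HFD it was at 38.0, 27.6, 43.7 and 31.0 CPM in WT and at 44.0, 56.7, 41.9 and 31.2 CPM in IRF5-KO. The groups overlapped in both genotypes. The log2 fold change was 0.25 in WT (adjusted p = 0.471, edgeR) and 0.60 in IRF5-KO (adjusted p = 0.0511), and the average was 0.42 (SE 0.16, adjusted p = 0.0411). The IRF5-KO value was called with no filter on low counts (0.59, adjusted p = 0.0422), with upper-quartile scaling, and without WT ST-HFD replicate 2, IRF5-KO ST-HFD replicate 1 or 4 or IRF5-KO LT-HFD replicate 4 (adjusted p = 0.0253 to 0.0400). The call of the average was lost with a replicate block (adjusted p = 0.0570) and in 10 of the 16 fits that left out 1 library (0.0502 to 0.0966). It held without WT ST-HFD replicate 4, WT LT-HFD replicate 2 or 4, IRF5-KO ST-HFD replicate 1 or 4, or IRF5-KO LT-HFD replicate 4.

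The 2 subunits were also set against each other within each library. Hadhb counts per 100 Hadha counts were 13.6, 11.4, 16.8 and 14.7 in WT and 12.4, 11.8, 14.9 and 15.7 in IRF5-KO on ST-HFD. They were 19.8, 18.1, 20.4 and 25.5 in WT and 29.1, 19.0, 25.8 and 19.6 in IRF5-KO on LT-HFD. Every LT-HFD library was above every ST-HFD library. The mean log2 ratio differed by 0.66 between durations, by 0.57 in WT and by 0.76 in IRF5-KO. This ratio was chosen after the values were seen, so it is given as a description with no test, and it needs no scaling between libraries.

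**Figure D3:**
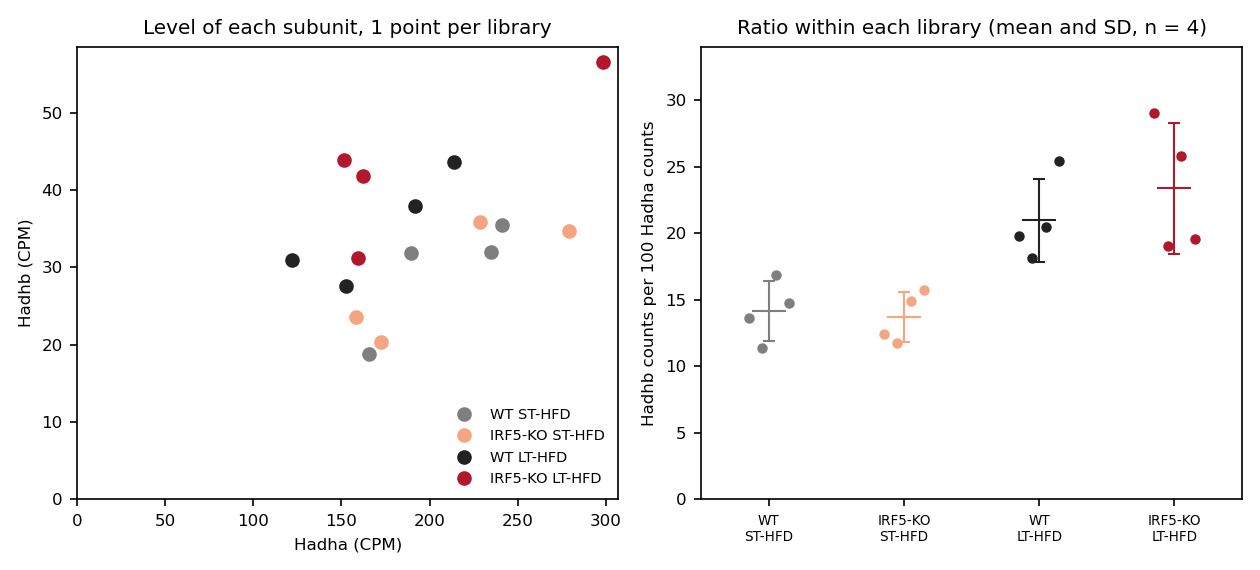
Left, Hadhb against Hadha in CPM, 1 point per library. Right, Hadhb counts per 100 Hadha counts in each library with the mean and SD of 4 (y axis from 0): the 8 ST-HFD libraries lie between 11.4 and 16.8 and the 8 LT-HFD libraries between 18.1 and 29.1.

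Within groups, the subunits still rose and fell together. After each library's log2 CPM was centred on its group mean, Hadha and Hadhb correlated over the 16 libraries with Pearson's r = 0.79 and Spearman's rho = 0.81 (permutation within groups, adjusted p = 0.00833 and 0.00790 over 10 relations). Within each duration r was 0.85 for ST-HFD and 0.77 for LT-HFD (8 libraries each, exact permutation p = 0.00940 and 0.0238). With the 2 libraries most distant from the Hadha median left out, the centred r was 0.75. How many of all genes follow Hadha as closely was not counted.

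Pparg encodes the nuclear receptor PPARgamma, which macrophages use to induce lipid uptake and storage genes, and lies on chromosome 6 from 115360951 to 115490399. It was at 31.4, 16.3, 18.2 and 35.2 CPM in WT and at 38.7, 25.0, 20.6 and 29.8 CPM in IRF5-KO on ST-HFD. On LT-HFD it was at 30.4, 18.9, 34.5 and 19.3 CPM in WT and at 26.5, 40.1, 27.5 and 26.9 CPM in IRF5-KO. It varied widely within groups and overlapped between all of them, with an average log2 fold change of 0.05 between durations (adjusted p = 0.842, edgeR) and differences of 0.16 and 0.22 between genotypes.

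Within groups, Pparg moved with the trifunctional protein genes and with Acadl. Centred within groups, Pparg correlated with Hadha (r = 0.88, rho = 0.84, adjusted p = 0.0003 and 0.0007 by permutation within groups), Hadhb (r = 0.78, rho = 0.76, adjusted p = 0.00635 and 0.00790) and Acadl (r = 0.77, rho = 0.79, adjusted p = 0.012 and 0.0089). With the 2 libraries most distant from the Pparg median left out, WT ST-HFD replicates 2 and 3, the centred r was 0.92, 0.82 and 0.67. The relation with Acadl did not pass without IRF5-KO ST-HFD replicate 1 (r = 0.73, permutation, adjusted p = 0.0527). Within the 8 ST-HFD and 8 LT-HFD libraries, r with Hadha was 0.89 and 0.90 (exact permutation p = 0.00660 and 0.00146), with Hadhb 0.70 and 0.87 (p = 0.0621 and 0.00526, exact permutation) and with Acadl 0.86 and 0.54 (p = 0.00806 and 0.161, exact permutation). The relations with Cpt1a (r = 0.25), Cpt2 (0.35), Acadm (0.51), Acadvl (-0.16) and Ppargc1b (-0.49) did not pass, with adjusted p from 0.108 to 0.599 by permutation. Within ST-HFD and LT-HFD, r with Ppargc1b was -0.80 and -0.29 (exact permutation p = 0.0145 and 0.484) and with Acadm 0.23 and 0.73 (exact permutation p = 0.578 and 0.0390). The relation with Ppargc1b passed without IRF5-KO LT-HFD replicate 2 (r = -0.59, permutation, adjusted p = 0.0394). Within durations, r with Cpt1a, Cpt2 and Acadvl ran from -0.20 to 0.61 (exact permutation p from 0.111 to 0.800). The summed adipocyte markers had r = -0.20 with Pparg (permutation, adjusted p = 0.451). These 16 libraries share their normalization, and same-numbered ST-HFD libraries of the 2 genotypes deviated together, so they are not fully independent. How many of all genes follow Pparg as closely was not counted, so these relations are not shown to be particular to FAO genes.

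The genes nearest in pattern, by the root mean square difference of centred log2 CPM over 16 libraries among 11560 genes, are given next. For Cpt1a they were Slu7 (0.10), Rnf10 (0.105) and Hdgf (0.106), for Acadl Ywhae (0.0892), Tubb2c (0.0964) and Capns1 (0.102), and for Acadvl Atad1 (0.119), Scarb2 (0.134) and Agpat3 (0.148). For Cpt2 they were Bud31 (0.153), Atrip (0.168) and Sh3bgrl (0.180), for Hadha Ctsz (0.128), Fam20c (0.140) and Blnk (0.143), for Hadhb Tpra1 (0.110), Dynlt3 (0.141) and Blvra (0.142), and for Pparg Pqlc3 (0.120), Nek6 (0.149) and Fnip2 (0.155). The nearest to Acadm was Acsl4 (0.122), an acyl-CoA synthetase that activates long polyunsaturated chains, followed by Capza2 (0.129) and Prmt5 (0.132). Among the members, Acadl and Acadm were closest (0.208) and Ppargc1b was far from all (0.835 to 1.30), nearest to Nrg2 (0.388), Rin3 (0.397) and Leprel1 (0.403). Hadha, the member nearest to Pparg, lay at 0.244 from it, farther than Pqlc3, Nek6 and Fnip2.

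The wider pathway was read from 7 lists of 70 other genes. Between genotypes edgeR called 0 of 62 tested genes at 4 weeks and 0 of 64 at 12 weeks, with 1 and 4 below 0.05 unadjusted, where 1.84% and 5.72% of all genes were. Between durations, 7 of 64 were higher and 4 lower at 12 weeks in WT, where 7 were called without ST-HFD replicate 1 or LT-HFD replicate 4, and 15 higher and 4 lower in IRF5-KO, where leaving out ST-HFD replicate 2 or 3 left 12 called. The higher genes include G0s2, which is given below as a description. Over all genes 12.1% were higher and 13.2% lower in WT, and 15.6% and 17.2% in IRF5-KO. Their median log2 fold change was 0.10 in WT and 0.29 in IRF5-KO, beside 0.02 and 0.04 for all genes.

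Most of the higher genes were other mitochondrial beta-oxidation genes, that is further acyl-CoA dehydrogenases, enzymes of the later steps and electron carriers. Of 15 such genes, 4 were higher in WT, 10 in IRF5-KO and 9 on average, beside 12.1%, 15.6% and 22% of all genes, and none was lower, with medians of 0.31, 0.39 and 0.34 on the log2 scale. Hadh, the short-chain 3-hydroxyacyl-CoA dehydrogenase, was at 26.9, 23.0, 25.0 and 29.6 CPM in WT on ST-HFD and at 47.2, 40.9, 32.8 and 45.7 CPM in WT on LT-HFD. In IRF5-KO it was at 24.5, 20.8, 30.27 and 30.28 CPM and then at 33.7, 43.6, 41.9 and 39.5 CPM. All LT-HFD libraries were above all ST-HFD libraries, with a log2 fold change of 0.67 in WT (SE 0.15, adjusted p = 0.0027, edgeR) and 0.58 in IRF5-KO (SE 0.15, adjusted p = 0.0058). Acadsb, which oxidizes short branched chains, rose by 0.58 and 0.66, and Echs1, the short-chain enoyl-CoA hydratase, and Acaa2, the medium-chain thiolase, rose in both genotypes as well. In IRF5-KO the others called were Acads, Eci1, Eci2, Decr1, Etfa and Etfb, which handle short chains, unsaturated chains and the passage of electrons. Hadh and Acadsb were named by the rule on small p and large changes, and the others outside it, after their values were seen.

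In the carnitine shuttle list 1 of 3 tested genes, Crat, was lower at 12 weeks in each genotype, and among 12 tested regulators 1 was lower and 1 higher in WT, and 2 were lower and 0 higher in IRF5-KO, beside 12.1% of all genes higher and 13.2% lower in WT, and 15.6% and 17.2% in IRF5-KO. Crat, the carnitine acetyltransferase, averaged 86.8 ± 6.30 and 67.6 ± 7.61 CPM at 4 and 12 weeks in WT, and 90.3 ± 4.49 and 58.7 ± 6.03 CPM in IRF5-KO (SD, n = 4), a log2 fold change of -0.36 (adjusted p = 0.0155, edgeR) and -0.62 (adjusted p = 2.11e-04). Ppard, the PPAR isoform tied to FAO in macrophages, went from 17.6 ± 3.08 to 10.6 ± 1.35 CPM in WT and from 22.5 ± 3.95 to 9.82 ± 1.42 CPM in IRF5-KO (SD, n = 4), a change of -0.73 and -1.19, both called. Rxra, the partner of the PPARs, was called lower in IRF5-KO (-0.58, adjusted p = 0.0114, edgeR) and not in WT, while its interaction had an adjusted p of 0.969. Tfam, which maintains and transcribes mitochondrial DNA, was higher in WT (0.63, adjusted p = 0.00933, edgeR) and on average (0.41, adjusted p = 0.00937). Slc22a5, the carnitine transporter of the plasma membrane, was called higher on average (0.48, adjusted p = 0.0268, edgeR). Ppara was at 0 in all 8 ST-HFD libraries and Ppargc1a, the sister of Ppargc1b, averaged at most 1.71 CPM in any group, so neither passed the filter.

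G0s2, an inhibitor of the lipase ATGL, had the largest fitted change among the genes of these 7 lists. It was at 1.37, 1.39, 1.52 and 1.13 CPM in WT and at 0.401, 0.257, 2.08 and 0.246 CPM in IRF5-KO on ST-HFD. On LT-HFD it was at 11.9, 8.73, 8.34 and 31.3 CPM in WT and at 11.1, 6.78, 16.01 and 15.8 CPM in IRF5-KO. All LT-HFD libraries were above all ST-HFD libraries, where it had 1 to 9 counts each. The fitted log2 fold change was 3.47 (SE 0.52) in WT and 3.98 (SE 0.58) in IRF5-KO. G0s2 did not pass the filter among the ST-HFD libraries alone and entered through the LT-HFD libraries, so these values are a description. Of 9 known PPAR targets, 0 were higher and 1 lower in WT, where 12.1% of all genes were higher and 13.2% lower. In IRF5-KO 2 were higher and 1 lower, beside 15.6% and 17.2% of all genes. On average 2 were higher and 1 lower, beside 22% and 21.6% of all genes. Ucp2, a mitochondrial carrier, fell by 0.67 and 0.52 on the log2 scale. Fabp4, a fatty acid binding protein, and Angptl4, an inhibitor of lipoprotein lipase, were higher in IRF5-KO (1.35 and 0.70, adjusted p = 0.00565 and 0.0179, edgeR) and on average (1.02 and 0.53). In WT they were 0.69 and 0.37 (adjusted p = 0.155 and 0.224). Angptl4, Hsd17b4 and Abcd3 were named after their values were seen.

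Of 11 tested genes of peroxisomal beta-oxidation, which shortens very long chains, 1 was higher and 1 lower in WT and 2 higher and 0 lower in IRF5-KO. Crot, the carnitine octanoyltransferase, was higher in both (0.52 and 0.56, adjusted p = 0.0346 and 0.0184, edgeR), Hsd17b4, the bifunctional enzyme, was lower in WT (-0.28, adjusted p = 0.0449), and Abcd3, a peroxisomal importer, was higher in IRF5-KO (0.46, adjusted p = 0.0248). Of 10 genes of uptake and activation 0 were called in WT and 1, Fabp4, in IRF5-KO, and of the 10 genes of lipid storage and lipolysis none but G0s2, given above as a description, passed in either. Among all genes 12.1% were higher and 13.2% lower in WT, and 15.6% and 17.2% in IRF5-KO.

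**Figure D4:**
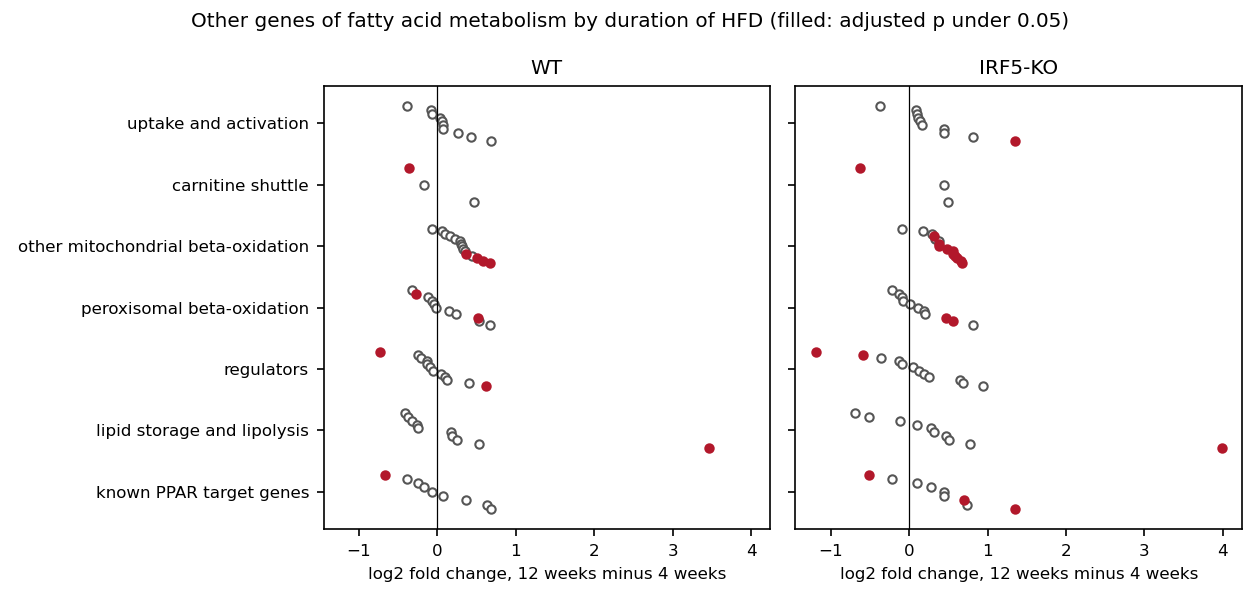
Log2 fold change, 12 weeks minus 4 weeks (x axis), of each tested gene of the 7 lists (y axis) in WT and IRF5-KO, with filled points for an adjusted p under 0.05. Of the other mitochondrial beta-oxidation genes 14 of 15 lie right of 0 in each genotype, and the point beyond 3 in each panel is G0s2.

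Marker transcripts of cell types also differed between durations. The fibroblast and preadipocyte sum was 3444, 3270, 3001 and 8690 CPM in WT and 7183, 3158, 5027 and 5542 CPM in IRF5-KO on LT-HFD, all above the ST-HFD maximum of 1593. Cpt1a was at 189 CPM in the library with a sum of 8690 and at 161 CPM in that with 3001, and Hadh was at 45.7 and 32.8 CPM, both in WT. In IRF5-KO the 2 libraries at the ends of the sum had the other order. Cpt1a was at 185 CPM and Hadh at 33.7 CPM at a sum of 7183, and at 203 and 43.6 CPM at 3158. Between them, Cpt1a was at 147 CPM at 5027 and at 206 CPM at 5542, so it followed no order with the sum there. Of 8 macrophage markers, 2 were lower (Csf1r and Itgam) and 0 higher at 12 weeks in WT, beside 13.2% and 12.1% of all genes. In IRF5-KO the same 2 were lower and 2 (Adgre1 and Fcgr1) higher, beside 17.2% and 15.6% of all genes. On average 4 were lower, with Cd68 and Mertk, and 1, Adgre1, higher, beside 21.6% and 22% of all genes. Of 4 neutrophil markers only Csf3r was tested, and it was lower in IRF5-KO (-0.82, adjusted p = 0.0122, edgeR). S100a8, S100a9 and Retnlg had 0 to 6 counts per library, so Csf3r alone does not stand for neutrophils. Of 4 tested adipocyte markers, Cidec was called lower in IRF5-KO (-1.05, adjusted p = 0.0484, edgeR). Adipoq (-0.88), Lep (-0.97) and, in the other direction, Plin1 (0.25) were not called. No tested endothelial, mesothelial, B cell or dendritic cell marker was called in either genotype. The part of the cell types behind these markers in the differences between durations was not tested. Mice after 12 weeks of HFD were also older, and the sources used here do not say whether the durations were processed in separate batches. Duration, age, any such batch and the depth of the libraries cannot be told apart. In bulk RNA, fewer cells of a type and less RNA per cell cannot be told apart either.

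**Figure D5:**
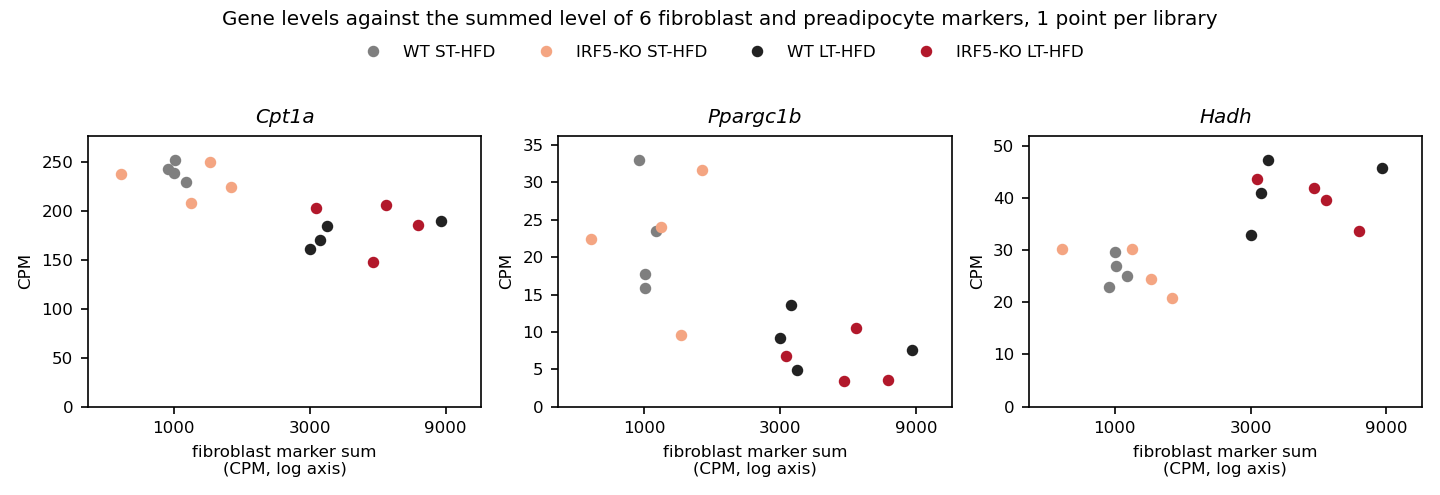
Cpt1a, Ppargc1b and Hadh in CPM (y axes, from 0) against the summed level of 6 fibroblast and preadipocyte markers in CPM (x axis, log scale), 1 point per library. The ST-HFD libraries lie at 653 to 1593 CPM and the LT-HFD libraries at 3001 to 8690 CPM on the x axis.

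Whether the duration difference itself depended on genotype was tested by the interaction. Of the 9 members 0 had an adjusted p under 0.05, as did 0% of 11560 genes (edgeR), and DESeq2's Wald test also gave 0, with 537 genes below 0.05 unadjusted. Unadjusted, 1 of 9 members passed 0.05 in edgeR, against 3.93% of all genes. This was Acadvl, with a difference of 0.43 (SE 0.18, adjusted p = 0.969, edgeR), that is -0.12 in WT and 0.31 in IRF5-KO. For Cpt1a the interaction was 0.14 (95% interval -0.18 to 0.45) and for Ppargc1b -0.49 (-1.67 to 0.69). None of the 64 tested genes of the wider lists was called, and 2, Rxra and Nrf1, passed 0.05 unadjusted.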

How the data were processed

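F4/80+ ATMs were sequenced in 16 libraries, taken as separate samples as the labels list them, from stranded total RNA depleted of ribosomal RNA. Per the labels and the study's methods, the authors trimmed reads with fastp 0.19.11, aligned them to mm10 with STAR 2.7.3a and deposited raw counts per gene, with no normalization. The labels also name mm9, with no role given. The annotation release and strand setting of the counting are not given in the sources used here.

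Counts were tested with edgeR 4.0.16 in R 4.3.3 (filterByExpr, TMM, quasi-likelihood test, Benjamini-Hochberg over all tested genes). Genotypes were compared within each duration, and durations and the interaction over all 16 libraries. CPM used TMM factors, log2 CPM a prior count of 2. DESeq2 1.42.0, other scalings, no filter, removal of the 3 top features, a replicate block and leaving out each library were tried. The edgeR fit and the correlation test were run on simulated data, with results not given here. Correlations used 100000 permutations. Lengths and coordinates are from GENCODE M21, and promoters and motifs from RefSeq windows.

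The members and the gene lists were chosen with earlier results of these data known. Named were all 9 members and the 3 nearest patterns per member. List genes were taken from those with the smallest p (up to 6 per comparison) and the 2 largest changes per list, not all of which are described. Other list genes were named after their values were seen. The result of 1 further gene, not counted in the lists, is not reported here.

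Same-numbered ST-HFD libraries of the 2 genotypes deviated together (r = 0.369, 0.483, 0.179 and 0.298 over 9765 genes), which met the criterion for pairs, although libraries of different numbers reached 0.467. Same-numbered LT-HFD libraries did not (-0.0696, -0.151, 0.0585 and 0.233). The intervals given are from fits without the block. No 2 libraries of a group were duplicates.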

Additional observations from a re-analysis of the deposited data

Results flagged for a closer look

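In 56 groups of 4 libraries checked (the 9 members, Hadh, G0s2, Irf5, the ratio of Hadhb to Hadha and the fibroblast and preadipocyte sum), 6 had 1 library farther from the rest than Dixon's limit for the gap over the range allows, where chance gives about 1 in 20. IRF5-KO LT-HFD replicate 2 stood high in Hadha, at 298.2 CPM, and in Pparg, at 40.1 CPM. WT LT-HFD replicate 4 stood high in G0s2 (31.3 CPM) and in the fibroblast and preadipocyte sum (8690 CPM). IRF5-KO ST-HFD replicate 3 stood high in G0s2, at 2.08 CPM, and WT ST-HFD replicate 1 stood low in Irf5, at 202.9 CPM.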

How the results depend on the processing

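Of 360 log2 fold changes of members under settings other than leaving out a library, 339 kept their direction and side of the threshold, 4 lost a call, 5 gained one and 12 changed sign, all 12 from values that were not called. With upper-quartile scaling Cpt2 in IRF5-KO was 0.0739 over duration, Hadha on ST-HFD -0.00727, Acadm on LT-HFD 0.01196 and the Acadm interaction 0.02974, and 4 members were called over duration in IRF5-KO in place of 2. With no filter, Pparg in WT was -0.0001463 over duration, Acadm on LT-HFD 0.002894 and its interaction 0.004943. Fitting 16 libraries for the genotype comparisons gave Acadm 0.001509 on ST-HFD and 0.001364 on LT-HFD, and the 8 IRF5-KO libraries alone gave 1 called member. Genes called between genotypes numbered 1 on ST-HFD and 2 on LT-HFD, but 2 and 6 with DESeq2 or no filter, and 2 on ST-HFD when 16 libraries were fitted. None was a member.

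With the replicate number as a block, Hadha on ST-HFD was -0.01035, Acadm on LT-HFD 0.00242 and the Acadm interaction 0.002759, and 2 and 0 genes were called between genotypes. For durations the block joined same-numbered ST-HFD and LT-HFD libraries of a genotype, whose deviations did not go together. Their r was 0.12, 0.363, -0.182 and -0.211 in WT and -0.0341, -0.385, -0.0148 and -0.202 in IRF5-KO. Among members the block lost the average Hadhb call and changed no other. The causes of these changes were not tested.

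Leaving out 1 library at a time gave these ranges between genotypes on ST-HFD: Acadl -0.1754 to 0.04636, Acadm -0.0493 to 0.05465, Hadha -0.1665 to 0.1281, Hadhb -0.2201 to 0.08192, Ppargc1b -0.2726 to 0.2064 and Pparg -0.03594 to 0.3665. On LT-HFD 0 to 2 genes were called, with Cpt2 -0.1372 to 0.04088, Acadm -0.12 to 0.1093 and Hadha -0.122 to 0.3254. Over duration in WT 1 to 2 members were called, 1 without WT ST-HFD replicate 2, and 7 to 13 list genes, and Pparg was -0.1517 to 0.2332. In IRF5-KO 1 to 4 members were called, 1 without LT-HFD replicate 1 or 3 and 4 without ST-HFD replicate 1, and 12 to 21 list genes, with Cpt2 -0.123 to 0.0727, Hadha -0.4155 to 0.0483 and Pparg -0.0852 to 0.2724. The average of Pparg was -0.0343 to 0.1581. The interaction was -0.1157 to 0.1043 for Acadm, -0.1237 to 0.3332 for Hadha and -0.1501 to 0.2451 for Pparg. The centred r of Pparg was -0.3428 to 0.1231 with Acadvl and -0.3688 to 0.0089 with the adipocyte markers. Ppargc1b rested on 12 to 142 counts per library.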
